A study of Drosophila melanogaster with 36 samples.

Results

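The late phase of untreated culture was examined in Kc167 cells. This line was derived from embryos of Drosophila melanogaster and resembles hemocytes, the blood cells of the fly. The comparison used 8 of the 36 arrays of the series, 4 arrays labelled Control 72hr and 4 labelled Control 24hr, chosen by label alone and not by any measured value. Cells were plated, the medium was replaced after 24 h, and RNA was harvested at set times after the replacement. Control cultures received fresh medium without methyl methanesulfonate (MMS, an agent that methylates DNA and other cellular nucleophiles). Cultures given MMS at 40 µg/mL and harvested at 24 and 72 h (4 arrays each) cover the same interval and share no array with the control comparison. All groups came from the same cell line, and the submitters describe the 4 replicates as cultures grown separately. Stock cultures were kept in exponential growth in Schneider's medium with serum. No source used here gives cell numbers at harvest, medium composition at harvest or a further change of medium between 24 and 72 h.

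Cultured insect cells in a closed flask multiply, draw sugars and amino acids from the medium and release waste products into it. Sugar uptake feeds glycolysis, and insulin and TOR signalling set the rate at which cells build ribosomes and copy DNA when nutrients are plentiful. FoxO and REPTOR are transcription factors that these pathways hold back and that act when nutrients are short. Detoxification enzymes act in turn. Cytochrome P450 enzymes oxidise a compound, glutathione S-transferases attach glutathione to electrophiles, and UDP-glycosyltransferases attach a sugar. Hemocytes carry phagocytic receptors such as the Nimrod and scavenger receptor families.

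Values are log2 expression values made by RMA, a method that corrects background, equalises the distribution of values between arrays and summarises the probes of each probe set. Because the distributions are equalised, a change is read against the rest of the genes on the array, and in such bulk samples fewer cells of a type and less RNA per cell cannot be told apart. Array medians lay between 4.47 and 4.66, and a gene with a mean under 6 is called dim here. For members of gene lists that mean is over all arrays of the series, so a gene high in 1 group passes more easily. Pearson correlations between arrays lay between 0.9935 and 0.9976 at 24 h, between 0.9934 and 0.9974 at 72 h, and between 0.971 and 0.9857 across the 2 times. Signs of RNA quality overlapped between the groups. The mean difference between 3′ and 5′ probe sets of the array's control transcripts was 1.07 to 1.10 at 24 h and 0.963 to 1.11 at 72 h, and the 18S rRNA probe set read 3.82 to 7.87 and 6.14 to 8.38. Of 15 hemocyte markers, 12 were above the dim level at 24 h and 14 at 72 h, and 8 were higher and 1 lower. All 4 measured muscle markers and all 4 of fat body and gut were dim at both times and 0 of them passed the test. Of 5 neuron markers 2, elav and brp, were higher, with 1 above the dim level at 72 h. With the correction for gene span described below, elav stood at 0.21 and brp at -0.01, and neither passed. Nor did brp pass with the mean of all its probe sets (0.09). Of 5 germline markers, 3 of them above the dim level at 24 h, 2 were lower. Among all genes tested 15% were higher and 14.9% lower at adjusted p under 0.05.

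Genes rose and fell in nearly equal numbers. A gene was called when its adjusted p (limma, Benjamini-Hochberg over 11982 genes) was under 0.05 and its change was at least 2-fold. By this rule 357 genes (2.98% of those tested) were higher at 72 h and 346 (2.89%) were lower. With the adjusted p alone, 1795 genes (15%) rose and 1787 (14.9%) fell. The median over all genes tested was -0.03 on the log2 scale. Groups that do not overlap, with all 4 arrays of 72 h on 1 side of the 4 arrays of 24 h, were seen for 3610 genes (30.1%) and for 700 of the 703 called genes. Among the arrays of 72 h, array 4 lay nearest to the mean of 24 h for 370 called genes (52.6%) and array 3 for 231 (32.9%). Without array 4 of 72 h, 429 genes were called higher and 404 lower. In the sentences below, a change is the log2 difference of 72 h minus 24 h ± its SE from limma, over 4 arrays at each time.

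**Figure D1:**
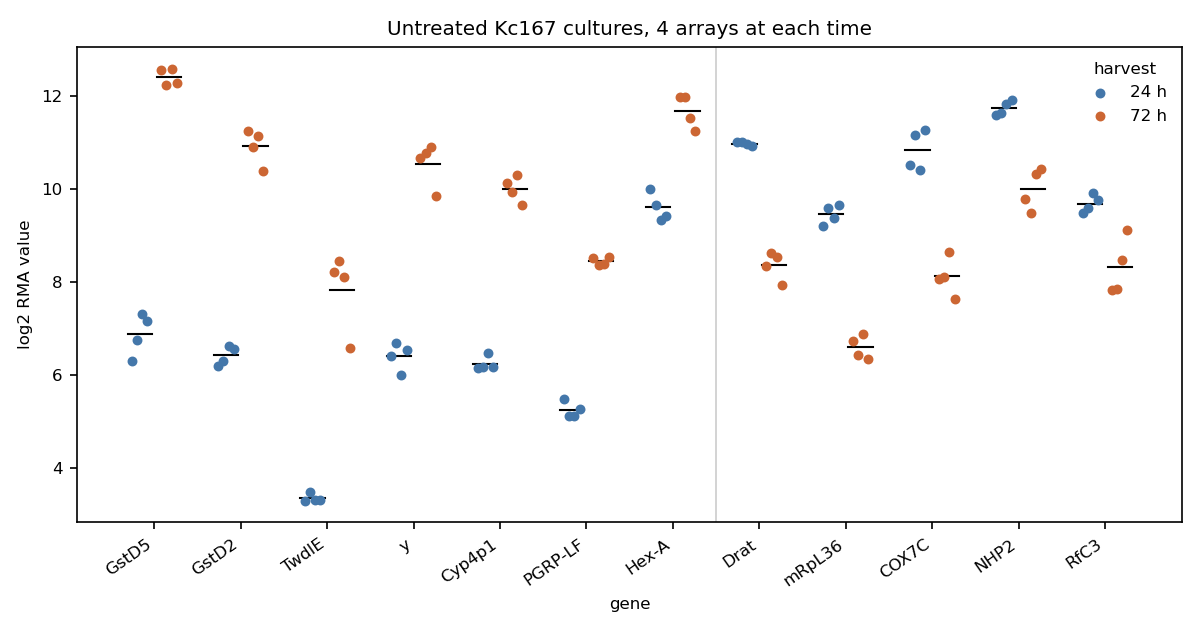
Log2 RMA values (vertical axis) of 12 genes in untreated cultures at 24 h (blue) and 72 h (orange), 4 arrays each, with bars at the means; genes to the left of the grey line were higher at 72 h and those to the right lower. For each of these genes all arrays of 72 h lie on 1 side of all arrays of 24 h, with GstD5 moving from 6.87 to 12.41 and mRpL36 from 9.45 to 6.60.

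Of the 15 largest increases 5 were in the glutathione S-transferase, cytochrome P450 and UDP-glycosyltransferase families. GstD5, a delta-class glutathione S-transferase, measured 6.29, 6.74, 7.30 and 7.15 on the arrays of 24 h and 12.55, 12.23, 12.58 and 12.26 on those of 72 h. The groups were far apart, with a change of 5.54 ± 0.18 (46.4-fold, adjusted p = 1.6e-21). Its neighbour in the family, GstD2, measured 6.19, 6.30, 6.62 and 6.55 at 24 h and 11.23, 10.90, 11.14 and 10.39 at 72 h, a change of 4.50 ± 0.18 (22.6-fold, adjusted p = 2.36e-19). GstD10 rose by 2.42 ± 0.12 and GstD6 by 2.09. The delta-class genes are close copies of each other, and how far their probe sets share signal was not measured. The family split in direction. Of 35 measured glutathione S-transferases 13 were higher at adjusted p under 0.05 and 10 lower, with a median change of -0.08. For the 26 members above the dim level the median was -0.18, and it turned to 0.34, with 15 higher and 7 lower, once values were corrected for gene span, the genomic length of a gene with its introns. GstO3, of the omega class, changed by -1.0 and Mgstl, a microsomal enzyme, by -0.73. Both fell in this fit, as did GstD7 at -0.79.

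Of 80 measured cytochrome P450 genes 20 were higher (25%, against 15% of all genes) and 3 lower (3.75%, against 14.9%). For the 19 members above the dim level the median was 0.75, and 0.74 with the correction for gene span, with 14 higher and 3 lower. That level is a mean over all arrays, those of 72 h included, so a rise helps a gene to pass it. Cyp4p1 measured 6.15, 6.17, 6.48 and 6.16 at 24 h and 10.12, 9.93, 10.29 and 9.65 at 72 h, which is 13.5-fold (change 3.76 ± 0.18, adjusted p = 1.73e-17). Cyp28a5 rose by 3.47 ± 0.12 and its relative Cyp28d1 by 2.79 ± 0.14. Cyp6d5, Cyp6a20, Cyp6a23 and Cyp6d4 rose by 1.59, 1.40, 1.35 and 1.10. The 3 P450 genes that fell were Cyp6a8 (-0.80), Cyp6w1 (-0.60) and Cyp12e1 (-0.43).

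Among 35 UDP-glycosyltransferases 9 were higher (25.7%, against 15% of all genes) and 1 lower (2.86%, against 14.9%). For the 11 members above the dim level, a mean that includes the arrays of 72 h, the median was 1.03. With the correction for gene span it was 1.11, with 8 higher and 0 lower. Ugt302K1 measured 5.24, 5.62, 5.20 and 5.11 at 24 h and 9.11, 8.98, 8.63 and 9.34 at 72 h (13.2-fold, adjusted p = 2.44e-21). Ugt49C1, Ugt37C2 and Ugt302C1 rose by 2.68, 2.41 and 2.14. The catalytic subunit of glutathione synthesis, Gclc, rose by 1.05 ± 0.14 and its partner Gclm by 0.85. Of 18 antioxidant and glutathione synthesis genes 4 were higher and 6 lower. Those that fell included the peroxiredoxin Prx3 (-0.94), mitochondrial superoxide dismutase Sod2 (-0.61) and the methionine sulfoxide reductase MsrA (-0.98). Further genes among the 15 largest increases were Cyt-b5-r (3.57 ± 0.12), a cytochrome b5-related gene, Naam (3.08 ± 0.14), a nicotinamide amidase, Obp49a (3.41 ± 0.15), an odorant-binding protein, spir (3.19 ± 0.16), an actin nucleator, and the unnamed genes CG42240 (4.77 ± 0.19) and CG12766 (3.31 ± 0.15).

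**Figure D2:**
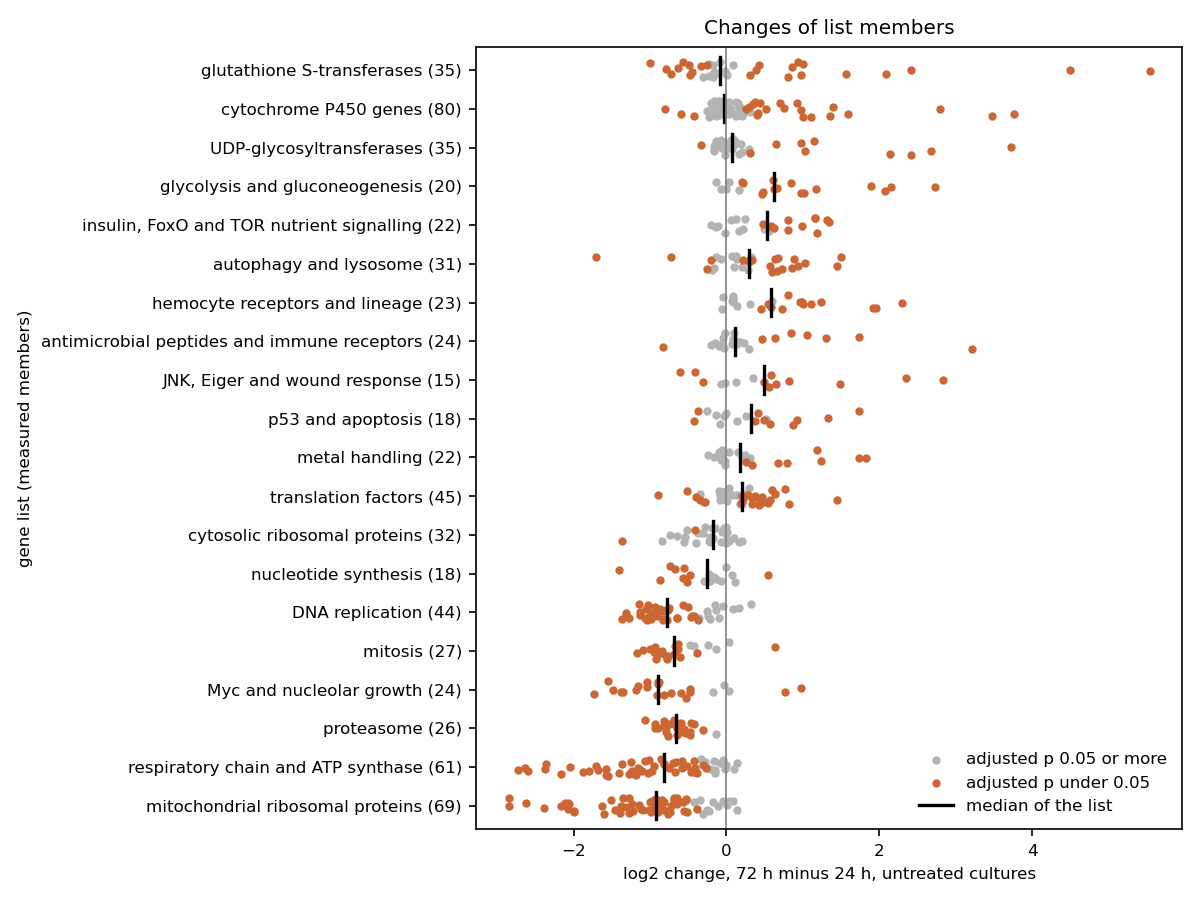
Log2 change of each measured member of 20 gene lists (horizontal axis, 72 h minus 24 h, untreated cultures), with members at adjusted p under 0.05 in orange and the others in grey; black bars are list medians and the vertical jitter carries no value. Replication, mitosis, nucleolar, proteasome, respiratory chain and mitochondrial ribosome lists lie to the left with medians of -0.66 to -0.92, and glycolysis lies to the right with 0.62. The detoxification families spread far to the right around medians near 0, taken over all measured members with dim ones included.

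Glycolysis and sugar uptake genes rose together. Of 20 genes of glycolysis and gluconeogenesis 15 were higher (75%, against 15% of all genes) and 0 lower, with a median change of 0.62. Hex-A, the hexokinase that phosphorylates glucose on entry, measured 10.00, 9.66, 9.33 and 9.42 at 24 h and 11.98, 11.97, 11.51 and 11.24 at 72 h (4.2-fold, adjusted p = 3.64e-11). The lowest array of 72 h lay above the highest array of 24 h by more than the spread within the 24 h group. Tret1-1, a transporter for the blood sugar trehalose, rose by 2.73 ± 0.19. Pgm1, which links glycogen and glycolysis, rose by 1.89 ± 0.13, the glycogen phosphorylase Glyp by 1.02 and Pfk, a control point of glycolysis, by 1.17. Enzymes of the opposite direction rose as well, with fbp (fructose-1,6-bisphosphatase) at 2.15 ± 0.16 and Pepck1 (phosphoenolpyruvate carboxykinase) at 0.97. The tricarboxylic acid cycle did not follow. Of its 13 measured genes 3 were higher (23.1%, against 15% of all genes) and 4 lower (30.8%, against 14.9%). ScsbetaG, a subunit of succinyl-CoA synthetase, changed by -1.01. With the correction for gene span the list median went from -0.12 to -0.27, with 0 higher and 6 lower.

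Genes of nutrient signalling leaned upward. Of 22 genes of insulin, FoxO and TOR signalling 11 were higher (50.0%) and 0 lower, with a median of 0.53. For the 19 members above the dim level the median went from 0.56 to 0.30 with the correction for gene span, and 1 member was then lower. The sugar-responsive factor sug measured 6.73, 6.89, 6.71 and 6.72 at 24 h and 8.20, 8.33, 8.30 and 7.58 at 72 h, a change of 1.34 ± 0.14. REPTOR rose by 1.18 ± 0.23 and foxo by 1.16 ± 0.28. In the same list bigmax rose by 0.81 ± 0.13 and Pdk1 by 0.80 ± 0.15. Activity of these pathways was not tested. The insulin receptor InR, a known target of FoxO, rose by 0.99. Inhibitors of the pathway rose too, with scyl, which restrains TOR, at 1.32 ± 0.33 and ImpL2, a secreted insulin-binding protein, at 1.16 ± 0.19. Autophagy and lysosome genes were higher in 16 of 31 cases (51.6%, against 15% of all genes) and lower in 4 (12.9%, against 14.9%). The shares of all genes include dim genes. For the 28 members above the dim level the median went from 0.31 to 0.22 with the correction for gene span. By that fit 13 were higher and 6 lower, beside 33.4% higher and 30.9% lower of all genes above that level. Atg18b rose by 1.5, Atg17 by 1.44 and Atg18a by 1.03, while Atg12, whose gene spans few bases, changed by -1.71 ± 0.37. Lipid storage and oxidation genes split evenly, 6 higher and 6 lower of 18. The triglyceride lipase bmm (1.12) and the phosphatidate phosphatase Lpin (1.35) rose, and Lsd-1, a lipid droplet protein, fell (-0.75).

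Amino-acid supply genes moved in opposite directions. The cytosolic glutamine synthetase Gs2 measured 6.59, 6.70, 6.26 and 6.44 at 24 h and 8.76, 8.78, 8.54 and 8.76 at 72 h, a change of 2.21 ± 0.11. The mitochondrial enzyme Gs1 measured 10.69, 10.59, 10.56 and 10.58 at 24 h and 9.27, 9.33, 9.68 and 10.08 at 72 h, a change of -1.01 ± 0.13. Both changes passed the test, in opposite directions. AsnS, the asparagine synthetase, changed by -1.17 ± 0.11 and Cth, which makes cysteine from cystathionine, by -1.10 ± 0.11. Of the 23 genes of this group 6 were higher and 7 lower. Translation factors leaned upward, 19 of 45 higher and 5 lower, with small sizes apart from eIF4B (1.44 ± 0.22). Aminoacyl-tRNA synthetases showed 3 higher and 4 lower of 18.

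Hemocyte genes rose. Of 23 receptor and lineage genes 13 were higher (56.5%) and 0 lower, with a median of 0.58. For the 12 members above the dim level the median went from 0.89 to 0.61 with the correction for gene span, with 9 higher and 1 lower. That level is a mean that includes the arrays of 72 h, so a rise helps a gene to pass it. NimC1, a phagocytic receptor of plasmatocytes, measured 6.09, 5.93, 5.93 and 5.91 at 24 h and 8.33, 8.5, 8.48 and 7.77 at 72 h (4.94-fold, adjusted p = 6.28e-14). Sr-CI, a scavenger receptor that was dim at 24 h, measured 4.07, 4.02, 4.08 and 4.10 and then 5.83, 6.70, 6.21 and 5.37. The integrin subunit Itgbn rose by 1.92 ± 0.17, NimB5 by 1.10 and crq, a receptor for apoptotic cells, by 0.73. The lineage factors srp, ush and zfh1 rose by 0.99, 1.00 and 0.81. Hml, the hemocyte marker hemolectin, stood at 12.15, 11.90, 11.45 and 11.30 at 24 h and 12.13, 12.09, 11.73 and 12.10 at 72 h, and did not pass the test. Pxn, a matrix peroxidase also used as a hemocyte marker but outside this list, went the other way. It moved from 8.76, 8.51, 8.10 and 8.12 to 7.18, 7.38, 7.47 and 7.23 (-1.05 ± 0.18). The crystal cell markers lz, PPO1 and PPO2 gave 0 calls, and of the lamellocyte markers PPO3 rose by 0.88 while atilla, dim at both times, stood at -0.12 and did not pass.

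Of 24 antimicrobial peptide genes, immune receptors and regulators 7 were higher (29.2%, against 15% of all genes) and 1 lower (4.17%, against 14.9%). PGRP-LF, which restrains the IMD pathway at the cell surface, measured 5.49, 5.11, 5.11 and 5.27 at 24 h and 8.51, 8.37, 8.39 and 8.54 at 72 h (9.25-fold, adjusted p = 3.09e-18). The 4 arrays of 72 h lay close together and far above those of 24 h. Tep4, a complement-like protein, rose by 1.74 ± 0.16, pirk, another inhibitor of IMD signalling, by 1.30 ± 0.14 and the receptor Tl by 1.06 ± 0.23. PGRP-LB, an enzyme that degrades peptidoglycan, fell (-0.83 ± 0.16). The antimicrobial peptide genes Drs, Def, Mtk, CecB, DptB and AttD had changes between -0.08 and 0.14, and 0 of these 6 passed the test.

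Some stress and signalling genes rose. Traf4, an adaptor upstream of JNK, measured 6.18, 6.39, 6.0 and 6.02 at 24 h and 9.19, 9.35, 8.87 and 8.51 at 72 h (7.13-fold). Gadd45 rose by 2.35 ± 0.12 and puc, a JNK phosphatase and target, by 1.49 ± 0.21. In the JNK and wound list 8 of 15 genes were higher and 3 lower, and the ligand egr stood at 0.13 ± 0.12. The tumour suppressor p53 measured 9.99, 9.92, 10.33 and 10.08 at 24 h and 11.90, 11.83, 11.87 and 11.66 at 72 h, a change of 1.74 ± 0.11. The initiator caspase Dronc rose by 1.33 ± 0.10 and the DNA end-binding proteins Irbp and Ku80 by 0.92 and 0.87. The checkpoint kinases grp and lok fell by 0.42 and 0.37 on the log2 scale. Metal handling genes were higher in 8 of 22 cases (36.4%, against 15% of all genes) and lower in 0. The metallothionein MtnA stood at 1.83 ± 0.29, the zinc transporter foi at 1.73 ± 0.20 and the ferritin chains Fer1HCH and Fer2LCH at 1.24 and 1.19. The clock factor vri rose by 2.55 ± 0.18 and its regulator cyc by 1.11 ± 0.06, the 2 genes higher of 8 in the clock list (25%), with 0 lower. Sox14 and Kr-h1, factors of the ecdysone and juvenile hormone responses, rose by 1.99 ± 0.19 and 1.37 ± 0.26. In the ecdysone list 8 of 23 genes were higher (34.8%) and 3 lower (13%), with a median of 0.0. The EGF receptor feedback inhibitor kek1 rose by 2.06 ± 0.21, in a list with 4 of 10 genes higher (40%) and 1 lower (10%).

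Of 56 measured pigment and cuticle genes 6 had a mean over all arrays above the dim level, and 3 of the 56 rose at least 2-fold. TwdlE, a Tweedle family cuticle protein, measured 3.30, 3.49, 3.31 and 3.32 at 24 h and 8.21, 8.44, 8.11 and 6.57 at 72 h, so array 4 stood well below the other arrays of 72 h. The change was 4.48 ± 0.25 (22.3-fold), from a level below the array medians, where RMA compresses differences. The yellow gene y, needed for black pigment, measured 6.40, 6.68, 6.0 and 6.54 and then 10.66, 10.77, 10.89 and 9.85, a change of 4.14 ± 0.18 (17.6-fold). The ebony gene e, whose enzyme joins beta-alanine to dopamine, measured 4.66, 5.42, 4.85 and 4.81 and then 8.63, 8.88, 8.32 and 7.77 (change 3.46 ± 0.19). In the whole list 6 genes were higher (10.7%) and 0 lower, so the share was below the 15% of all genes.

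Genes of DNA replication fell. Of 44 measured genes 33 were lower (75%, against 14.9% of all genes) and 0 higher, with a median change of -0.78. RfC3, a subunit of the clamp loader, measured 9.48, 9.58, 9.91 and 9.75 at 24 h and 7.83, 7.84, 8.47 and 9.11 at 72 h. Arrays 1 and 2 of 72 h lay lowest and array 4 nearest to the 24 h level, and the change was -1.37 ± 0.18 (adjusted p = 1.91e-07). PolD2, of DNA polymerase delta, changed by -1.27 ± 0.13, the primase subunit Prim1 by -1.31 ± 0.19 and Cdk2, the S-phase kinase, by -1.13 ± 0.12. The helicase subunits Mcm5, Mcm6, Mcm2 and Mcm3 changed by -1.06, -1.02, -0.87 and -0.81. PCNA, the sliding clamp, changed by -0.42 ± 0.09. CycE at 0.17 and Orc1 at -0.10 did not pass the test. The median over the list was -1.0 with replicates 1 and 2 only and -0.50 with replicates 3 and 4 only.

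Mitotic genes fell with them. Of 27 genes 21 were lower (77.8%) and 1 higher, with a median of -0.69. The Aurora kinase aurB measured 9.51, 9.81, 9.97 and 9.87 at 24 h and 8.26, 8.19, 8.93 and 9.10 at 72 h. Its change was -1.17 ± 0.16, beside -1.09 ± 0.14 for the spindle motor ncd and -0.63 ± 0.10 for the cyclin CycB. The spindle checkpoint kinase Bub1 rose (0.63 ± 0.17), though its groups overlapped. Nucleotide synthesis gave 8 lower and 1 higher of 18, led by Ctps, the CTP synthase, with 9.36, 9.39, 9.38 and 9.28 at 24 h and 7.70, 7.97, 7.90 and 8.25 at 72 h (-1.40 ± 0.13). Of 17 piRNA and germline genes 7 were lower and 1 higher.

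Genes of ribosome building fell as well. Of 24 nucleolar and Myc-related growth genes 19 were lower (79.2%) and 2 higher, with a median of -0.89. NHP2, of the particle that modifies ribosomal RNA, measured 11.58, 11.62, 11.81 and 11.90 at 24 h and 9.78, 9.48, 10.32 and 10.42 at 72 h (-1.73 ± 0.18). Polr1B, a subunit of RNA polymerase I, changed by -1.55 ± 0.16, the helicase pit by -1.48 and fibrillarin, Fib, by -0.81 ± 0.09. Nop17l (0.98) and Non1 (0.76) rose. The proteins of the cytosolic ribosome itself gave 2 lower and 0 higher of 32, with a median of -0.18. The direction turned with the correction for gene span, from a median of -0.16 to 0.16 over 30 members, with 12 higher and 1 lower. RpS19b, a second copy of the gene for ribosomal protein S19, changed by -1.37, or -0.61 with the correction.

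The changes also varied with gene length. The span of a gene is its genomic length with introns, taken from the RefSeq gene table for Release 6 plus ISO1 MT. Among genes above the dim level, the median change was -1.46 for the 80 genes spanning up to 600 bases and -0.80 for the 197 genes of 600 to 800 bases. It was -0.01 for 2000 to 3000 bases and 0.39 for the 189 genes over 30000 bases. The median span was 924 bases for genes called lower, 5217 for genes called higher and 2621 for all genes above the dim level. Across those 5669 genes, which are not independent and share the same arrays, change and log10 span had r = 0.41 and rho = 0.46. The shortest genes (up to 800 bases) lay 0.00 to 0.34 above their mean over all arrays at 24 h and 0.57 to 0.94 below it at 72 h, array by array, and the groups did not overlap. The MMS-treated cultures showed the same order of medians, from -1.78 to 0.79. After each array was corrected for gene span among genes above the dim level, 1896 genes (33.4% of 5669) were higher and 1749 (30.9%) lower at adjusted p under 0.05. The part of span in the results below was not tested beyond this correction, and values with it are given beside some of them. Among genes named above, the correction moved GstD7 to 0.04 (adjusted p = 0.795) and PCNA to -0.02 (adjusted p = 0.851), so these no longer passed.

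**Figure D3:**
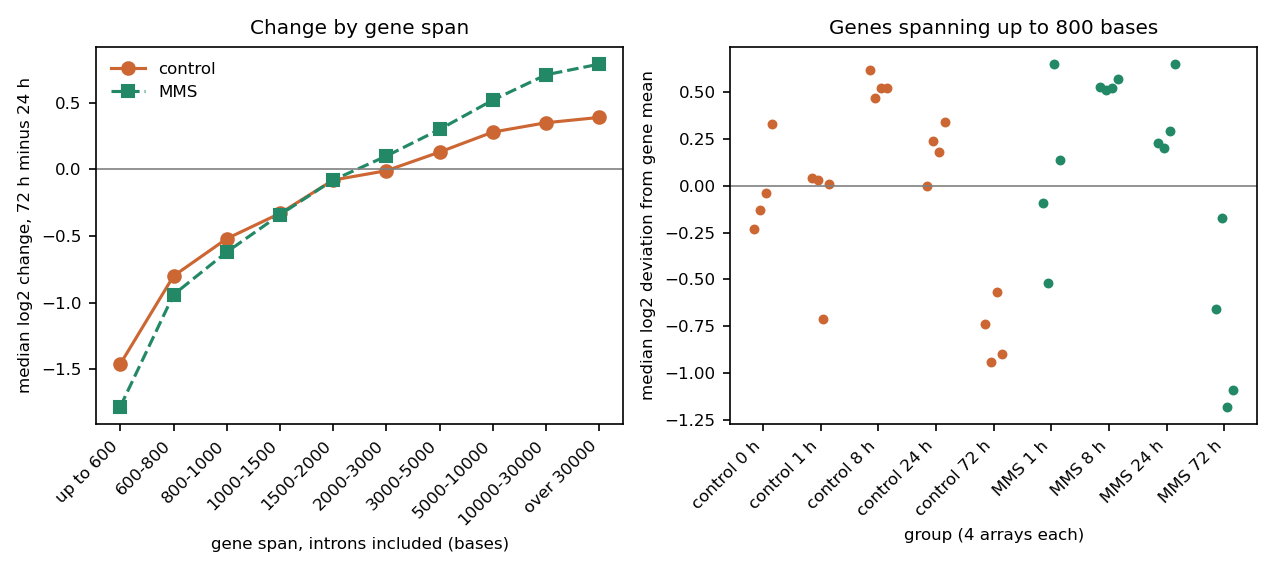
Left, median log2 change (72 h minus 24 h) of genes above the dim level, grouped by gene span in bases, for untreated (orange circles) and MMS-treated cultures (green squares); right, the median deviation of the 277 genes spanning up to 800 bases from their mean over all arrays, with 1 point per array. Control medians run from -1.46 for the shortest genes to 0.39 for the longest, and the 4 control arrays of 72 h sit at -0.57 to -0.94.

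Mitochondrial ribosomal proteins, encoded in the nucleus and needed to translate mitochondrial mRNAs, fell. Of 69 genes 57 were lower (82.6%) and 0 higher, 28 of them at least 2-fold, with a median of -0.92. The median span of the list was 909 bases, and with the span correction the median was -0.33, with 41 lower and 7 higher. mRpL36 measured 9.19, 9.58, 9.37 and 9.66 at 24 h and 6.73, 6.43, 6.88 and 6.35 at 72 h, a change of -2.85 ± 0.35, or -1.63 after the correction. mRpS14 measured 9.57, 9.95, 9.59 and 10.09 and then 7.18, 6.77, 7.17 and 6.72 (-2.84 ± 0.35, corrected -2.16). Every array of 72 h lay below every array of 24 h for both genes. mRpS33 changed by -2.62 ± 0.41 (corrected -1.41) and mRpL27 by -2.38 ± 0.36. At the other end, mRpS5 stood at 0.14 and mRpL45 at 0.09.

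The respiratory chain and ATP synthase followed the same order. Of 61 genes 46 were lower (75.4%) and 0 higher, with a median of -0.82. For the 50 members above the dim level the median was -1.04, and -0.64 with the span correction, when 41 were lower and 2 higher. COX7C, a subunit of cytochrome c oxidase, measured 10.50, 11.16, 10.41 and 11.27 at 24 h and 8.07, 8.11, 8.64 and 7.64 at 72 h (-2.72 ± 0.48, corrected -2.61). Arrays 2 and 4 stood above arrays 1 and 3 at 24 h, as they did for CG14483 and Acbp1. UQCR-14, of complex III, changed by -2.64 ± 0.50 (corrected -1.71) and cype, of cytochrome c oxidase, by -2.60 ± 0.50 (corrected -1.75). ND-15, of complex I, whose gene spans 41305 bases, changed by -1.80 ± 0.26 and by -2.18 with the correction. Other members changed less, with ATPsynbeta at -0.66 and blw, the alpha subunit of ATP synthase, at -0.46, and the complex I subunit ND-75 at -0.15 did not pass the test.

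The proteasome fell evenly. Of 26 subunits 25 were lower (96.2%) and 0 higher, with changes from -1.06 to -0.14 and a median of -0.66. With the span correction the median was -0.40, with 25 lower and 0 higher. Rpn7, of the regulatory lid, measured 11.47, 11.59, 11.73 and 11.61 at 24 h and 10.29, 10.40, 10.71 and 10.75 at 72 h (-1.06 ± 0.10). Prosbeta5, which carries a catalytic site, changed by -0.89 ± 0.13. Rpn6 at -0.14 was the subunit that did not pass.

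Among the single largest decreases Drat was unlike the rest. Drat, which carries an alcohol dehydrogenase domain, measured 11.00, 11.00, 10.96 and 10.92 at 24 h and 8.34, 8.61, 8.53 and 7.94 at 72 h (-2.62 ± 0.10, 6.13-fold, adjusted p = 1.14e-19). Its gene spans 6864 bases and the corrected change was -2.88. The other 14 of the 15 largest decreases came from genes spanning 420 to 1714 bases, with SEs of 0.30 to 0.58. They included the acyl-CoA binding protein Acbp1 (-2.68 ± 0.58, corrected -1.68) and the membrane protein insertion factor EMC6 (-2.46 ± 0.42, corrected -1.23). The splicing factors SmF (-2.54 ± 0.51, corrected -1.11) and Phf5a (-2.51 ± 0.38, corrected -1.57) were also among them. So were the unnamed genes CG14483 (-2.98 ± 0.46, corrected -2.56), CG8860 (-2.56 ± 0.48, corrected -1.0), CG16985 (-2.54 ± 0.30, corrected -1.97) and CG11858 (-2.44 ± 0.38, corrected -1.23).

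Levels at the earlier control times differed between the gene groups. These values share the control arrays of 24 h with the changes above and are given side by side only. GstD5 stood at 5.09, 5.13 and 7.71 at 0, 1 and 8 h before 6.87 at 24 h and 12.41 at 72 h. Hex-A stood at 9.39, 9.26, 9.54 and 9.60 at 0, 1, 8 and 24 h before 11.67 at 72 h. NimC1 stood at 5.28, 5.05, 5.64 and 5.97 over the same times before 8.27. All 3 genes were highest at 72 h. GstD5 stood higher at 8 h than at 24 h, and so did p53, with 10.11, 10.15, 10.98, 10.08 and 11.82 over the 5 times. The arrays of 8 h stand apart in their 3′ to 5′ differences (2.02 to 2.31), and the part of this in the 8 h values was not tested. Relative to control at 24 h, the median of the replication list was 0.40 at 0 h and -0.78 at 72 h, and that of the nucleolar list 0.57 and -0.89. Mitochondrial ribosomal proteins stood at 0.01 at 0 h and -0.92 at 72 h, and the proteasome at 0.09 and -0.66. Glycolysis stood at -0.32 at 0 h and 0.62 at 72 h.

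**Figure D4:**
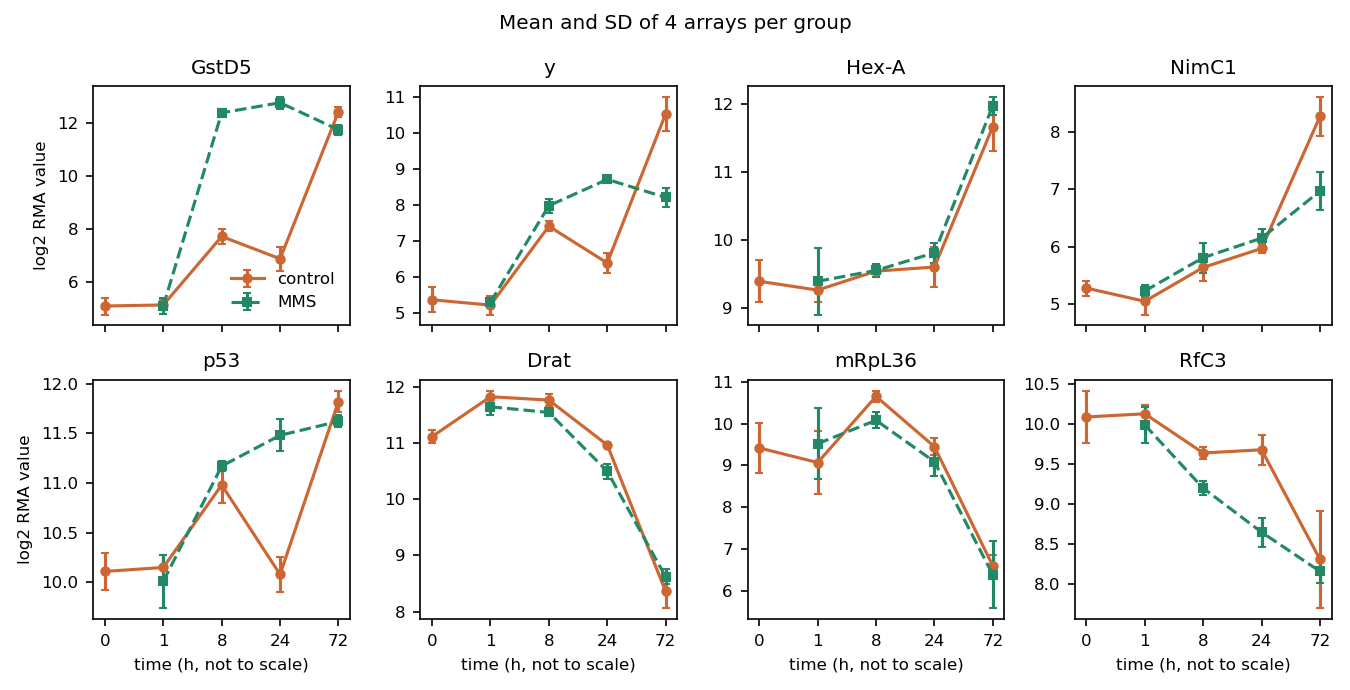
Mean log2 RMA value (vertical axis) and SD of 4 arrays at each harvest time (horizontal axis, h, equally spaced and not to scale) for 8 genes in control (orange circles) and MMS-treated cultures (green squares, none at 0 h). In control cultures GstD5, y, Hex-A, NimC1 and p53 are highest and Drat, mRpL36 and RfC3 lowest at 72 h, with GstD5 of MMS cultures already at 12.75 at 24 h.

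Over the same interval MMS-treated cultures moved in the same direction for many genes. In those cultures 689 genes (5.75%) were higher at 72 h than at 24 h and 339 (2.83%) lower. Of the genes higher in control cultures 199 were also higher with MMS, which is 55.7% of the 357 and 28.9% of the 689. Of the genes lower in control cultures 221 were also lower with MMS, 63.9% of the 346 and 65.2% of the 339. Opposite calls were made for 4 and 1 genes. Across the 5681 genes above the dim level the changes had r = 0.73 and rho = 0.74, over genes that share these arrays within each medium. At adjusted p under 0.05 alone, 2676 genes (22.3%) were higher and 2385 (19.9%) lower with MMS. Lists with many members lower by that rule in both media were the mitochondrial ribosome (57 of 69 lower in control, 65 with MMS), the respiratory chain (46 and 46 of 61), the proteasome (25 and 24 of 26) and the nucleolar list (19 and 18 of 24).

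The change itself differed between the media for some genes. In the test of the difference (change with MMS minus change in control), 331 genes (2.76%) had a more positive change with MMS and 110 (0.918%) a more negative one, past both thresholds. Of the 357 genes higher in control cultures, 70 were among those with a more negative change with MMS and 21 among those with a more positive one. GstD5 changed by -1.01 with MMS, from 12.75 to 11.73, a difference of -6.55 ± 0.26 (adjusted p = 5.3e-19). GstD2 changed by -1.23 with MMS, a difference of -5.73 ± 0.26. At 24 h the MMS mean was 9.95 for GstD2, beside 6.42 at 24 h and 10.91 at 72 h in control cultures, so both genes were already high with MMS at 24 h. CG42240 (-4.88 ± 0.27), y (-4.65 ± 0.25), TwdlE (-4.38 ± 0.35) and Gr94a, a gustatory receptor gene (-4.14 ± 0.19), completed the 6 most negative differences among genes called in control cultures and in this test. MtnA rose in control cultures and changed by -1.87 with MMS (difference -3.70 ± 0.41), and eIF4B changed by -0.78 (difference -2.23 ± 0.31). Gadd45 stood at a change of 0.00 and p53 at 0.13 with MMS, with differences of -2.35 ± 0.18 and -1.60 ± 0.16.

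For most replication and mitosis genes the change differed between the media. At adjusted p under 0.05 alone, the difference was more positive for 1094 (9.13%) of all genes and more negative for 543 (4.53%). With MMS 7 of 44 replication genes were lower and 7 higher, and 29 had a more positive change than in control cultures, at adjusted p under 0.05 of the difference, with 0 more negative. Of the 27 mitotic genes 20 had a more positive change with MMS and 0 a more negative one. Relative to control at 24 h the replication list stood at -0.97 in MMS cultures at 24 h and -0.82 at 72 h, beside -0.78 in control cultures at 72 h. Mcm5, as an example, stood at 10.14 and 9.08 in control and at 8.58 and 8.53 with MMS. By these values the list was low at both times with MMS, and in control cultures at 72 h.

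The 6 most positive differences among genes called in both tests were smaller. Lime, a zinc finger factor, rose from 4.24 to 6.74 in control and from 4.82 to 9.23 with MMS (difference 1.91 ± 0.26). The other 5 were nw (2.21 ± 0.22), CG30345 (2.07 ± 0.14), Idgf1, an imaginal disc growth factor (2.01 ± 0.23), CG30344 (1.91 ± 0.13) and Pxn (2.15 ± 0.25). Pxn fell in control cultures and rose with MMS, by 1.09. For Hex-A, with changes of 2.07 in control and 2.16 with MMS, the difference did not pass the test (0.09 ± 0.25, adjusted p = 0.873).

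**Figure D5:**
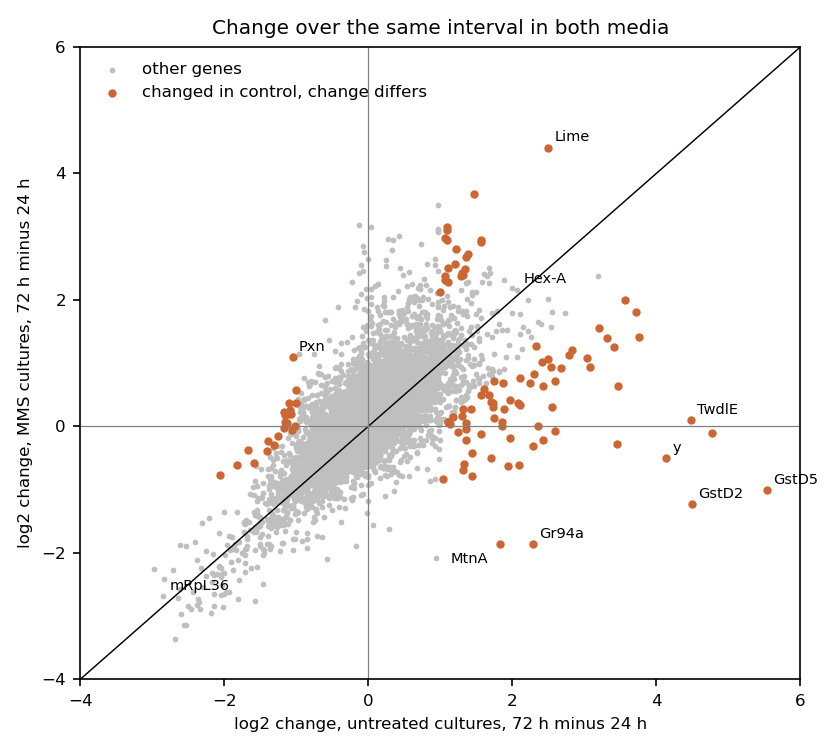
Log2 change (72 h minus 24 h) of each gene in untreated cultures (horizontal axis) and in MMS-treated cultures (vertical axis), with the line of equal change; orange points are genes called in untreated cultures whose change also differed between the media at adjusted p under 0.05 and at least 2-fold. mRpL36 (-2.85 and -2.69) and Hex-A (2.07 and 2.16) lie near the line, GstD5 (5.54 and -1.01) and GstD2 (4.50 and -1.23) far below it.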

How the data were processed

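Expression was measured on Affymetrix Drosophila Genome 2.0 arrays, 4 per group. The authors deposited log2 values, a single value for each probe set on each array, made with RMA per the submitters' processing notes (version not given in the sources used here). Arrays carry no sequencing depth, so their number limits the precision. Of 18952 probe sets, 13647 were listed with 1 gene, 402 with several, 4720 with none, and 183 were Affymetrix controls. The probe set with the highest mean was taken for the 1094 genes with several, which left 11982 genes.

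Groups were fitted as 9 means over all 36 arrays with limma 3.58.1 in R 4.3.3 (27 residual and 5.37 prior degrees of freedom, moderated two-sided test), with Benjamini-Hochberg adjustment across the genes tested. The methods name a permutation analysis by the array service, for which limma was substituted. The fit was tested on simulated data. The comparison, the 44 gene lists and the rule for named genes were chosen with earlier results of these data known, so lists are described by counts and medians only. Named are the 15 genes that rose most and the 15 that fell most among calls with groups apart, the 5 members per list whose adjusted p was lowest, any other list member where a list is described, and the 6 largest differences between media in each direction. Replicate numbers come from the labels. Deviations of same-numbered arrays at 24 and 72 h correlated at 0.378, 0.424, 0.498 and 0.267 for numbers 1 to 4, so they were treated as paired in an alternative fit. Arrays 1 and 2, and 3 and 4, also deviated together (0.731 between array 1 of 24 h and array 2 of 72 h). Gene span came from the RefSeq gene table of Release 6 plus ISO1 MT. List members without a probe set of their own in the annotation were not analysed here. Alternatives were the samples fitted, centring, further quantile normalization, the mean of probe sets, a filter at a mean of 6, the prior, array weights, a test against a change of 0.5, the block and leaving out each array. The span correction (lowess, fraction 0.3) and fits of replicates 1 and 2 or 3 and 4 were added after seeing the data.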

Additional observations from a re-analysis of the deposited data

Results flagged for a closer look

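A single array stood apart in 4 of the 64 groups of 4 arrays examined for the genes named by size, where chance gives about 1 in 20. The gap of the outermost array took 0.87 of the range for TwdlE at 24 h (array 2 high), 0.92 for Cyp4p1 at 24 h (array 3 high), 0.92 for Cyp28a5 at 72 h (array 4 low) and 0.87 for Acbp1 at 72 h (array 4 low).

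For 14 of the 15 largest increases the change with MMS differed from that in control cultures by at least 2-fold, at adjusted p under 0.05 in the test of the difference (limma). The remaining gene, spir, had a difference of -0.82 ± 0.23 (adjusted p = 0.0129). In units of log2 the change with MMS minus that in control was -6.55 for GstD5, -5.73 for GstD2, -4.88 for CG42240, -4.65 for y, -4.38 for TwdlE and -3.74 for e. It was -2.83 for Cyp28a5, -2.35 for Cyp4p1, -2.16 for Obp49a, -2.15 for Naam, -1.92 for CG12766, -1.91 for Ugt302K1, -1.65 for PGRP-LF and -1.58 for Cyt-b5-r. These genes were chosen for a high change in control cultures, which enters the difference, so its negative sign is in part set by the choice.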

How the results depend on the processing

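Among the 243 genes named by rule, those that passed the test in the main fit or in an alternative kept their direction, except with the span correction. For genes that passed in neither fit a turn of direction was not counted. With that correction (genes with a mean of at least 6) the control comparison gave 254 genes higher, a share of 58.9%, and 177 lower. Of these 190 and 132 were shared with the 357 and 346 without it, and the MMS comparison gave 250 higher and 188 lower. The difference between media gave 139 more positive. The direction turned for Sec61beta (0.19), Vha14-1 (0.25), Hph (-0.01), brp (-0.01) and RpL32 (0.39), and also for GstD7 (0.04). With a test against a change of 0.5 the difference gave 211 more positive. Replicates 3 and 4 alone gave 1144 genes higher with MMS, and replicates 1 and 2 alone 209 lower with MMS. In the control comparison they gave 355 higher and 269 lower, and 394 higher and 487 lower. Centring each array on its median gave 303 higher and 430 lower, a share higher of 41.3% against 50.8%. Leaving out 1 array at a time gave 315 to 429 genes higher and 305 to 404 lower in control cultures, 629 to 781 and 296 to 376 with MMS, and 290 to 406 and 107 to 130 for the difference. The cause of these shifts was not tested. The replicate block gave 357 higher and 346 lower and changed no count of the control comparison, and of 243 named genes 1 lost and 1 gained the threshold.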

Other observations

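Further gene groups in untreated cultures between 24 and 72 h had mixed results. Of 22 genes of endoplasmic reticulum chaperones and stress 4 were higher (18.2%, against 15% of all genes) and 3 lower (13.6%, against 14.9%). These shares were near those of all genes, and the median was 0.04. The stress sensor Ire1 changed by 1.02. Of 10 heat-shock genes and co-chaperones 6 were higher (60%, against 15% of all genes, dim ones included) and 1 lower. The co-chaperone stv stood at 1.22 ± 0.20 and the small heat-shock gene Hsp26 at 0.93 ± 0.14. All 10 were above the dim level. With the correction for gene span 6 were higher and 1 lower, beside 33.4% higher and 30.9% lower of all genes above that level. Vacuolar ATPase subunits gave 2 higher (7.41%) and 4 lower (14.8%) of 27. Of 16 basement membrane and matrix genes 2 were higher (12.5%) and 2 lower (12.5%), with glutactin, Glt, at 1.39 ± 0.21, beside Pxn at -1.05. Notch targets and regulators gave 2 higher of 9 (22.2%, against 15% of all genes), with the repressor H at 1.11. H did not pass with the mean of all its probe sets (0.7, adjusted p = 0.117 in limma). Adhesion genes gave 5 higher (33.3%) and 1 lower (6.67%) of 15, with talin, rhea, at 1.35. JAK-STAT genes gave 2 higher (22.2%, against 15% of all genes) and 0 lower of 9. For the 6 members above the dim level the median went from 0.34 to -0.01 with the correction for gene span. By that fit 1 was higher and 1 lower.

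Outside the genes tested, 5122 probe sets are listed with no gene or several genes. Of these 69 were higher and 29 lower by the same rule, and the largest change was 4.07.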
